A study of Prunus avium with 18 samples.

Results

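The January 3 genes are 200 of the 48,133 genes counted in sweet cherry flower buds, and they were chosen by their measured levels, which were highest on January 3 relative to every other sampling date. Levels were CPM values (a gene's raw count divided by the library's total count and multiplied by 1,000,000), averaged over the 3 libraries of a date. Of the 16,296 genes with a mean of at least 5 CPM on January 3, the 200 with the highest ratio were kept (1.23%), the ratio being the January 3 mean plus 0.5 CPM over the highest mean of the 5 other dates plus 0.5 CPM. The January 3 peak itself is therefore how the genes were picked, so it is described here and not tested.

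Buds of Prunus avium 'Fertard', a late flowering cultivar, were collected through 1 winter on October 17, December 8, January 3, January 15, February 12 and March 12, and RNA was sequenced from 3 biological replicates per date, each made of buds from another tree. All 18 libraries are untreated flower buds of this cultivar, so date is the only factor, and weather, chilling and development change with it and cannot be told apart. The labels of the December libraries read December 17, 2012, where the design text gives December 8, and December 8 is used here. Whole buds hold scales, primordia and vascular tissue together, so a higher level from more cells of a type and from more RNA per cell cannot be told apart.

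Flower buds of temperate fruit trees pass the winter dormant: in endodormancy the bud does not grow even in warm conditions, and a long period of chilling is needed before it enters ecodormancy, when only cold holds it back. Transcription goes on during this rest, and groups of genes are switched on and off in sequence from autumn to spring. The study followed this sequence with a view to transport into the bud, which runs through plasmodesmata that callose can close, through cell walls and through xylem.

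The 200 genes are known almost only by identifiers of the 'Regina' genome, which give the chromosome and the order of annotation. One gene, GSL_10C (PAV05g0251341), is among the 585 different genes in the copy of the study's transport candidate list used here, and 6 genes on unplaced contigs carry ontology terms in the excerpt of the study's annotation used here. No sequence, coordinate or further gene name is given, because the reference table at hand belongs to another assembly and shares no identifier with the counts.

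Total counts were 10,095,600 to 21,023,379 per library, and the spread between libraries of the same date exceeded that of counting (chi-square per degree of freedom 1.85 to 22.4 over genes). A feature of the libraries that moved with some of the values below is the summed level of 3 neighbouring callose synthase identifiers, GSL_10B, GSL_10C and GSL_10D, relative to the next identifier, GSL-like3. This ratio was 0.379 to 0.516 on October 17, 0.392 to 0.643 on December 8, 0.50 to 0.634 on January 3, 0.417 to 0.545 on January 15, 0.333 to 0.392 on February 12 and 0.319 to 0.558 on March 12. The library with the lowest ratio of its date was also the lowest of that date in the summed level of the 200 genes at 4 of 6 dates. GSL_10C is itself among the 200. Counts of calls and the choice of genes were also computed without the library of lowest ratio at each date, as given below. Beyond that, the part of the ratio in the results was not tested.

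Together the January 3 genes took 2.17% of all counts on January 3. Their summed level was 10,747 ± 140 CPM (SD, n = 3) on October 17, 12,150 ± 891 CPM on December 8, 21,711 ± 136 CPM on January 3, 13,644 ± 730 CPM on January 15, 9197 ± 162 CPM on February 12 and 6422 ± 183 CPM on March 12. The January 3 libraries lay far above all others, and by January 15 the sum was closer to its December value than to its January 3 value. It was 1.59 times lower on January 15 and 3.38 times lower on March 12 than on January 3.

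**Figure D1:**
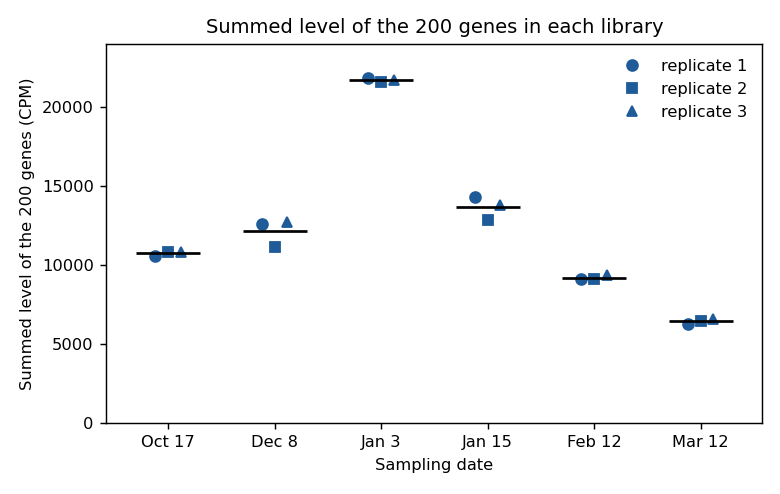
Summed level of the 200 January 3 genes in CPM (y axis) in each of the 18 libraries by sampling date (x axis), with a symbol for each replicate number and a line at the date mean. The 3 January 3 libraries sit between 21,571 and 21,843 CPM, and no other library exceeds 14,274 CPM.

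The peak was shallow. The ratio had a median of 1.47 and reached 3.39, it was at least 2 for only 8 genes and under 1.5 for 120. The same rule at the other dates gave a ratio at rank 200 of 2.28 for October 17, 1.33 for December 8, 1.31 for January 15, 2.64 for February 12 and 14.6 for March 12, against 1.38 for January 3, and genes with a ratio of at least 2 numbered 268, 29, 10, 436 and 1257 at those dates. Few genes thus stood out on December 8, January 3 or January 15. The dates were not evenly spaced, January 3 and January 15 being the closest, and October 17 and March 12 end the series. The ratios of the dates are therefore not on equal terms. At the edge of the rule, PAV01g0061601 and PAV02g0137921 were just inside with ratios of 1.37696 and 1.37692, and 000178F_QUIVER_OBJg0425721 and PAV01g0028821 were just outside with 1.37657 and 1.37621, so the border falls among genes that hardly differ.

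In 174 of the 200 genes all 3 January 3 libraries were above all 15 other libraries, and in 26 they overlapped. These same levels chose the genes, so the rule favours a high count, and none was made over all genes. The genes span a wide range of abundance, from 5.11 to 1555 CPM on January 3 with a median of 45.4 CPM and quartiles of 16.5 and 112.7 CPM, and the 10 most abundant made up 35.5% of the sum. When the genes were chosen again without the replicates of 1 number and looked up in the 6 libraries left out, January 3 was the highest of the 6 for 177, 170 and 186 of 200 genes with numbers 1, 2 and 3 left out, that is for 88.5%, 85.0% and 93.0%, where all genes of at least 5 CPM gave 18.9%, 22.3% and 21.8%. The median ratio in the left out libraries was 1.24, 1.32 and 1.38, below the 1.51, 1.46 and 1.50 of the libraries that chose them. Of the genes chosen in this way only 138, 136 and 155 were among the January 3 genes. The shares thus describe the rule and not the list itself.

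Away from January 3 the genes were not spread evenly over the other dates. January 15 was the next highest date for 103 genes, December 8 for 58, October 17 for 25, February 12 for 12 and March 12 for 2, PAV06g0275851 and PAV04g0221931. In the same order, these were 51.5%, 29%, 12.5%, 6% and 1% of the 200. Among all 16,296 genes of at least 5 CPM, the highest of the 5 dates other than January 3 was January 15 for 24.1%, December 8 for 15.4%, October 17 for 17.9%, February 12 for 17.8% and March 12 for 24.9%. March 12 was the lowest date for 136 genes (68%), February 12 for 44, October 17 for 17 and December 8 for 3, namely PAV06g0275851, PAV08g0377111 and PAV04g0221931. Among all genes of at least 5 CPM these dates were lowest for 29.0%, 17.4%, 14.1% and 16.2%. January 3 could not be lowest for the 200, so the shares are not on equal terms. As a share of the January 3 level, the median gene stood at 53.1% on October 17, 60.9% on December 8, 64.3% on January 15, 45.1% on February 12 and 33.6% on March 12, while the median of all genes of at least 5 CPM stayed between 94.2% and 100.7%.

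**Figure D2:**
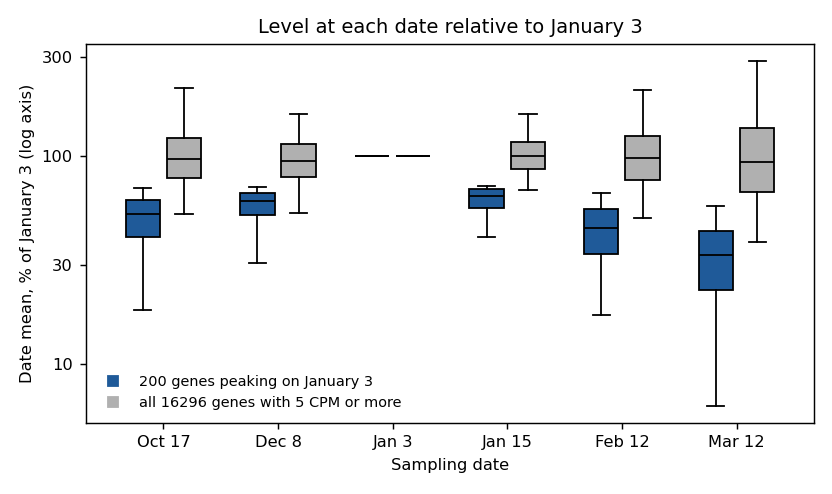
Date mean of each gene as a percentage of its January 3 mean (y axis, log scale, 0.5 CPM added to both) at the 6 dates (x axis), for the 200 January 3 genes and for all 16,296 genes of at least 5 CPM. Boxes give quartiles and median and whiskers the 5th and 95th percentiles. The median of the 200 falls to 33.6% on March 12.

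Dates other than January 3 were compared with each other, which asks how the genes moved before and after the date that chose them. Their levels on those dates entered the rule as a ceiling, since the highest had to lie below January 3 by a ratio of at least 1.377. This bounds the room for change between those dates, and all genes tested had no such bound. Shares of all genes are given for scale, and the contrast with them rests in part on the choice. Counts were fitted with edgeR's quasi-likelihood test over 26,248 genes, all 200 January 3 genes among them, and calls required a p of under 0.05 after Benjamini-Hochberg adjustment together with a log2 fold change beyond 1 in either direction. From October 17 to December 8, 21 of the 200 genes rose (10.5%, against 3.49% of all genes tested) and 9 fell (4.5%, against 11.6%), with a median log2 fold change of 0.29 against -0.04 for all genes. The January 3 genes leaned upwards into winter, while calls among all genes went mostly downwards. Genes that fell after October and stayed low could not be among the 200. Moreover, the 200 had to reach 5 CPM on January 3, as 16,296 genes did, and the 26,248 tested had no such filter. The contrast is therefore a description and not a test.

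Between December 8 and January 15, the dates on either side of the peak, few genes were called. Of the 200, 6 were higher on January 15 (3%, background 8.35%) and 1 was lower (0.5%, background 4.02%). The median log2 fold change was 0.01, and both dates lay under the ceiling of the rule. After January 15 the movement was almost all downwards. From January 15 to February 12, 37 genes fell (18.5%, against 3.9% of all genes) and 1 rose (background 7.1%), and from February 12 to March 12 another 51 calls were downwards (25.5%, against 9.66%) and 1 upwards (background 14.7%). Median log2 fold changes were -0.49 and -0.44, with 178 and 159 of 200 genes below 0.

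The end of the series was lower than its start. From October 17 to March 12, 49 genes fell (24.5%, against 7.73%) and 5 rose (2.5%, against 13.2%), with a median log2 fold change of -0.59 and 176 of 200 genes below 0. The 5 that rose were PAV06g0275851, PAV05g0232161, PAV05g0232171, PAV08g0398181 and PAV01g0057591. Only 3 of them were called without October 17 replicate 2, where PAV05g0232161 and PAV01g0057591 were lost, and 3 without March 12 replicate 3, where PAV05g0232161 and PAV06g0275851 were lost. PAV01g0057591 was barely past the fold threshold at 1.008. Its call was also lost without October 17 replicate 1, February 12 replicate 3 or March 12 replicate 1, and in further settings. Most changes were modest. Of the 200 genes, 108 were called in none of the 5 comparisons, 92 in at least 1 and 26 in at least 3. The matching counts were not made over all genes tested, so whether these differ from the background cannot be told.

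Without the fold threshold the picture had the same shape. From October 17 to December 8, 77 genes were higher and 15 lower (backgrounds 19.0% and 24.1% of all genes), and from December 8 to January 15, 26 were higher and 8 lower (20.0% and 15.8%). From January 15 to February 12, 5 were higher and 118 lower (20.1% and 19.9%). From February 12 to March 12, 9 were higher and 111 lower (28.8% and 26.8%), and from October 17 to March 12, 9 were higher and 125 lower (28.4% and 25.1%), so in each of these last 3 comparisons most of the 200 genes were lower at the later date by the adjusted p.

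**Figure D3:**
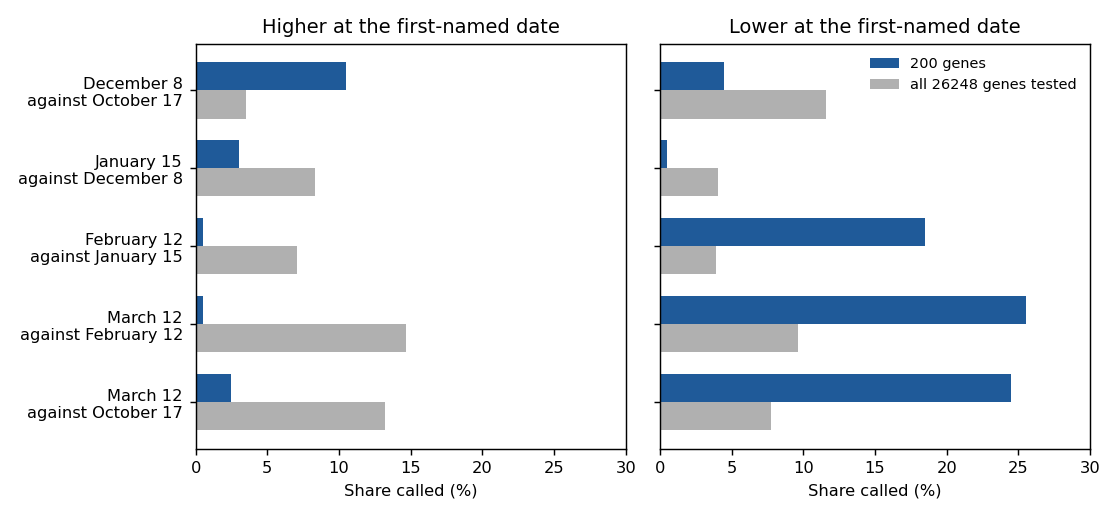
Share of genes called higher (left) and lower (right) at the first-named date of each of 5 comparisons, in percent (x axis), for the 200 January 3 genes and for all 26,248 genes tested, by edgeR's quasi-likelihood test with both thresholds (0.05 on the adjusted p and 1 on the log2 fold change). Lower calls on March 12 against February 12 take 25.5% of the 200 and 9.66% of all.

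The genes also differed in level by the date of their next highest level, which fixes part of each course by construction. As a median share of the January 3 level, the 25 genes next highest on October 17 stood at 67.6% then and 47.8% on December 8. The 58 genes next highest on December 8 stood at 67.0% then and 49.0% on October 17, and the 12 next highest on February 12 at 68.2% then and 31.1% on March 12.

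Highest in ratio was PAV07g0338771 on chromosome 7 (ratio 3.39). Its level was 1.87, 2.93 and 2.84 CPM in replicates 1 to 3 of October 17, 2.42, 3.39 and 3.08 CPM on December 8, 11.02, 8.71 and 14.0 CPM on January 3, 4.12, 1.66 and 1.66 CPM on January 15, 1.54, 2.65 and 1.84 CPM on February 12 and 0.903, 0.450 and 0.396 CPM on March 12. All 3 January 3 libraries were above the highest other library, which was at 4.12 CPM, and the March libraries were below all others. It was called in the comparisons with March 12 alone, with a log2 fold change of -1.76 ± 0.46 (SE) from February 12 (adjusted p = 0.0036) and -2.10 ± 0.45 from October 17 (adjusted p = 0.000649).

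The next in rank show how differently the genes behave around the peak. PAV07g0350711 reached 10.5, 14.7 and 12.0 CPM on January 3, was at 3.85 to 5.73 CPM in the December 8 and January 15 libraries, and fell between January 15 and February 12 (log2 fold change -1.82 ± 0.38, adjusted p = 0.00102). PAV07g0358441 climbed from 7.47 to 8.29 CPM on October 17 through 48.8, 20.7 and 52.9 CPM on December 8 to 196, 108 and 106 CPM on January 3, and was back at 3.60 to 6.24 CPM on March 12. Its rise by December was called (2.45 ± 0.37, adjusted p = 3.52e-05), as were its falls after January 15 (-1.27 ± 0.33, adjusted p = 0.00535) and after February 12 (-2.30 ± 0.41, adjusted p = 0.000126). PAV02g0092001 (29.2, 31.7 and 31.4 CPM on January 3) likewise rose from October to December by 1.19 ± 0.17 on the log2 scale and fell to 1.39 to 1.98 CPM by March 12.

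PAV02g0126901 on chromosome 2, the gene ranked 4, had a saw-tooth course. It was at 249, 227 and 173 CPM on October 17, at 70.6, 77.4 and 70.6 CPM on December 8, at 567, 481 and 397 CPM on January 3, at 211, 108 and 179 CPM on January 15, at 63.2, 50.5 and 61.0 CPM on February 12 and at 18.1, 15.0 and 18.1 CPM on March 12. The January 3 libraries were above all others and the December libraries below all of October, while October and January 15 overlapped. It fell from October to December (log2 fold change -1.51 ± 0.19, adjusted p = 4.5e-06), was higher on January 15 than on December 8 (1.13 ± 0.19, adjusted p = 0.000152) and ended far lower on March 12 than in October (-3.66 ± 0.21, adjusted p = 1.71e-10).

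A December trough was shared by PAV06g0275851 and PAV08g0377111. The former measured 5.79, 6.13 and 5.95 CPM on October 17, 1.78, 2.11 and 2.72 CPM on December 8, 25.7, 29.4 and 29.6 CPM on January 3, 10.2, 14.8 and 11.3 CPM on January 15, 7.89, 6.27 and 8.12 CPM on February 12 and 10.7, 12.8 and 16.5 CPM on March 12. Neither the December nor the January 3 libraries overlapped any other date, and the rise from December 8 to January 15 was called (2.42 ± 0.20, adjusted p = 7.7e-08). Unlike most of the 200 genes it was also higher on March 12 than on October 17 (1.16 ± 0.18, adjusted p = 2.63e-05). PAV08g0377111 was at 0.445 to 0.917 CPM on December 8 against 2.68 to 5.14 CPM in October, 5.39 to 9.25 CPM on January 3 and 3.41 to 5.04 CPM on January 15, with log2 fold changes of -2.61 ± 0.38 into December and 2.62 ± 0.38 out of it (adjusted p = 2.51e-05 and 3.56e-05).

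The largest changes of all were winter-only expression. PAV05g0232161 and its neighbour in identifier order, PAV05g0232171, on chromosome 5 were close to silent in October and March, and on January 3 their levels were above the upper quartile of the 200 genes. PAV05g0232171 had 9, 4 and 12 counts on October 17, that is 0.841, 0.255 and 0.830 CPM, then 309, 404 and 308 CPM on December 8, 648, 1043 and 808 CPM on January 3, 608, 433 and 486 CPM on January 15, 143, 134 and 160 CPM on February 12 and 2.05, 1.44 and 3.37 CPM on March 12. PAV05g0232161 ran in parallel at a lower level, with 2, 4 and 4 counts in October, 258, 391 and 323 CPM on January 3 and 10, 2 and 22 counts in March. Every winter library of both was far above every October and March library.

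For this pair the log2 fold change from October 17 to December 8 was 9.15 ± 0.30 for PAV05g0232171 and 9.04 ± 0.33 for PAV05g0232161 (adjusted p = 4.97e-13 and 1.4e-12), and from February 12 to March 12 it was -6.05 ± 0.26 and -5.46 ± 0.29. The October side of these folds rests on 25 and 10 counts over 3 libraries. Their March level was above the October level by 1.86 ± 0.49 and 2.02 ± 0.70 (adjusted p = 0.00365 and 0.0208), and for PAV05g0232161 this call was lost without October 17 replicate 2 (adjusted p = 0.0509) or without March 12 replicate 3 (log2 fold change 1.04, adjusted p = 0.242). Whether the 2 identifiers are separate genes cannot be read from the files, which hold no gene models.

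PAV07g0343651 and PAV06g0288451 had a similar winter course at lower levels. The former measured 4.21, 3.89 and 4.36 CPM on October 17, 24.0, 28.5 and 26.6 CPM on December 8, 45.3, 59.7 and 44.9 CPM on January 3, 41.5, 27.8 and 34.3 CPM on January 15 and 7.89, 8.13 and 10.1 CPM on February 12, and on March 12 it had 2, 0 and 1 counts. Both its fall from February 12 and its lower level than in October were called (adjusted p = 1.73e-10 and 1.14e-08). Since March holds 3 counts in all, the pooled level on February 12 was 95.2 times that of March with a 95% exact interval of 32.3 to 463.9 and the October level 46.1 times with 15.5 to 225.6, both covering counting error only. PAV06g0288451 had 1, 3 and 4 counts in October, 10.4, 19.4 and 12.6 CPM on January 3, 5.55, 1.94 and 5.90 CPM on February 12 and no count in any March library. Against a floor of 3 counts over the March libraries (0.0899 CPM) it was at least 50.8-fold higher on February 12.

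**Figure D4:**
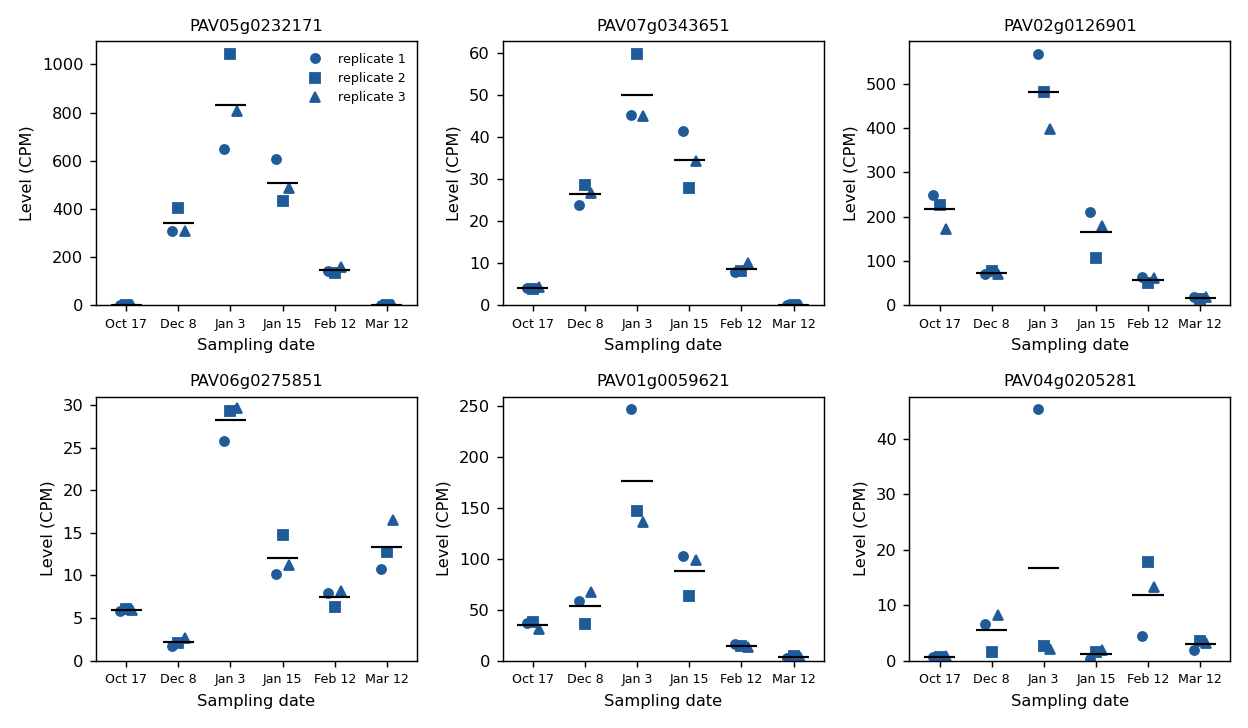
Level in CPM (y axis, from 0) of 6 January 3 genes in each library by sampling date (x axis), with a symbol for each replicate number and a line at the date mean. PAV05g0232171 and PAV07g0343651 are near 0 in March, PAV02g0126901 and PAV06g0275851 dip in December, PAV01g0059621 declines after January, and the January 3 mean of PAV04g0205281 comes from replicate 1 at 45.3 CPM.

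Loss after midwinter was large in PAV01g0059621, which was at 31.2 to 37.5 CPM in October, 58.9, 35.8 and 67.7 CPM on December 8, 247, 147 and 136 CPM on January 3 and 103, 63.2 and 98.6 CPM on January 15, then at 13.4 to 16.1 CPM on February 12 and 2.54 to 4.60 CPM on March 12. Its changes from January 15 to February 12 and from February 12 to March 12 were -2.54 ± 0.26 and -2.04 ± 0.35 (adjusted p = 9.86e-07 and 7.08e-05). PAV06g0306001 held 24.3 to 28.8 CPM in October, 37.1 to 41.1 CPM on January 3 and 5.30 to 9.06 CPM on February 12 and dropped to 0.541 to 0.985 CPM in March, -5.17 ± 0.25 against October on the log2 scale (adjusted p = 1.42e-11).

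Calls upwards in spring were few. PAV07g0357971 was at 5.17, 8.55 and 5.82 CPM on January 3, fell from 3.50 to 4.99 CPM on January 15 to 0.177 to 1.11 CPM on February 12 (-2.60 ± 0.34, adjusted p = 1.32e-05) and was back at 2.61 to 3.57 CPM in March (2.19 ± 0.36, adjusted p = 5.51e-05), the only one of the 200 genes called higher in that comparison with all libraries. Without February 12 replicate 2 a second gene was called higher, PAV08g0391651, and without March 12 replicate 1 it was PAV08g0398181, while without the library of lowest callose synthase ratio at each date 6 were. PAV08g0398181 was at 3.64 to 5.89 CPM in October and 35.4 to 63.9 CPM on January 3, and its 15.3, 20.5 and 26.3 CPM in March were above the October level (2.08 ± 0.28, adjusted p = 6.01e-06).

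3 of the 200 genes had over 50% of their January 3 level in 1 library, replicate 1 in each case: PAV04g0205281, PAV02g0098461 and PAV07g0354971. PAV04g0205281 was at 45.3, 2.70 and 2.14 CPM on January 3, so 90.4% came from replicate 1 and the other 2 lay below the 4.44, 17.8 and 13.3 CPM of February 12. It was the only gene called higher on February 12 than on January 15 (3.29 ± 0.99, adjusted p = 0.0133), a call that was lost without January 15 replicate 1 (adjusted p = 0.0559) or February 12 replicate 2 (adjusted p = 0.0508). PAV02g0098461 reached 1073 CPM in replicate 1 of January 3 against 490 and 505 CPM in the others, and January 15 replicate 2 was above those 2 at 615 CPM, so its dates overlapped.

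By abundance the leading genes were SCA_138g0403851 on an unplaced scaffold and PAV02g0136681 on chromosome 2, together 11.5% of the January 3 sum. The former was at 882, 912 and 921 CPM in October, 635, 603 and 661 CPM in December, 1493, 1609 and 1563 CPM on January 3, 1158, 918 and 1098 CPM on January 15, 601, 587 and 636 CPM on February 12 and 538, 475 and 509 CPM in March. No replicate of January 3 overlapped another date, and the December dip (-0.46 ± 0.08, adjusted p = 0.000164) and the higher January 15 level (0.68 ± 0.08, adjusted p = 3.92e-06) were past the adjusted p but below the fold threshold. PAV02g0136681 kept 490 to 639 CPM from October to January 15 outside January 3, when it was at 814, 978 and 1015 CPM, and it then declined to 230 to 244 CPM in March, -1.30 ± 0.09 against October (adjusted p = 2.55e-09).

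Some neighbours in identifier order were chosen together. Counting genes of the 200 with at most 5 annotated genes between them, 51 of the 200 fell into 18 runs, 15 of which were pairs. No gene models were at hand, so whether the identifiers of a run are separate genes is not known. Counts of genes in the runs below are counts of identifiers. Chromosome 1 held 51 genes (25.5%, against 21.5% of genes of at least 5 CPM), or 38 without the longest run, and 18 of the 200 were unplaced.

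The longest run held 13 January 3 genes among 19 consecutive identifiers, PAV01g0056481 to PAV01g0056661, with ratios from 1.39 to 2.14 and a median of 1.80. 10 of these 13 were among the first 30 ranks. Of the other 6 identifiers in the stretch, 4 had almost no counts, and PAV01g0056641 and PAV01g0056651 were also highest on January 3, with ratios of 1.08 and 1.29. Of the 3 identifiers on either side of it, those of at least 5 CPM had ratios of 0.776 to 0.952, so their highest level was at another date.

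Summed over the run the level was 230, 267 and 272 CPM on October 17, 414, 299 and 401 CPM on December 8, 792, 627 and 618 CPM on January 3, 322, 341 and 380 CPM on January 15, 129, 187 and 155 CPM on February 12 and 113, 165 and 236 CPM on March 12. The run thus went from its top to near its bottom within the time from January 3 to February 12, and the 3 January 3 libraries were well apart from the rest. December 8 was the next highest date for 11 of the 13, where January 15 was for 103 of the 200. Its most abundant genes were PAV01g0056551 (197, 194 and 154 CPM on January 3), PAV01g0056541 (157, 119 and 117 CPM) and PAV01g0056481 (146, 73.8 and 106 CPM).

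Between January 15 and February 12, 8 of the 13 genes fell, where 18.5% of the 200 genes and 3.9% of all genes did, with a median log2 fold change over the run of -1.12 and a range of -1.79 to -0.62. By March 12, 3 genes fell further (against 25.5% of the 200 genes and 9.66% of all), PAV01g0056591, PAV01g0056601 and PAV01g0056611 (-1.13 ± 0.24, -1.16 ± 0.29 and -1.53 ± 0.24), and these were neighbours, whereas 8 of the 13 had log2 fold changes above 0, none of them called. This count depended on the libraries: 1 gene of the run fell without March 12 replicate 1 and 2 without February 12 replicate 2, and without the library of lowest callose synthase ratio at each date 1 gene of the run fell and 4 rose, PAV01g0056481, PAV01g0056501, PAV01g0056521 and PAV01g0056531 (log2 fold changes 1.25, 1.13, 1.19 and 1.08). The lowest date was February 12 for 8 genes and March 12 for 5. PAV01g0056481 varied between replicates, at 81.5, 27.3 and 79.7 CPM on December 8, where replicate 2 is the library with the lowest callose synthase ratio of that date.

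**Figure D5:**
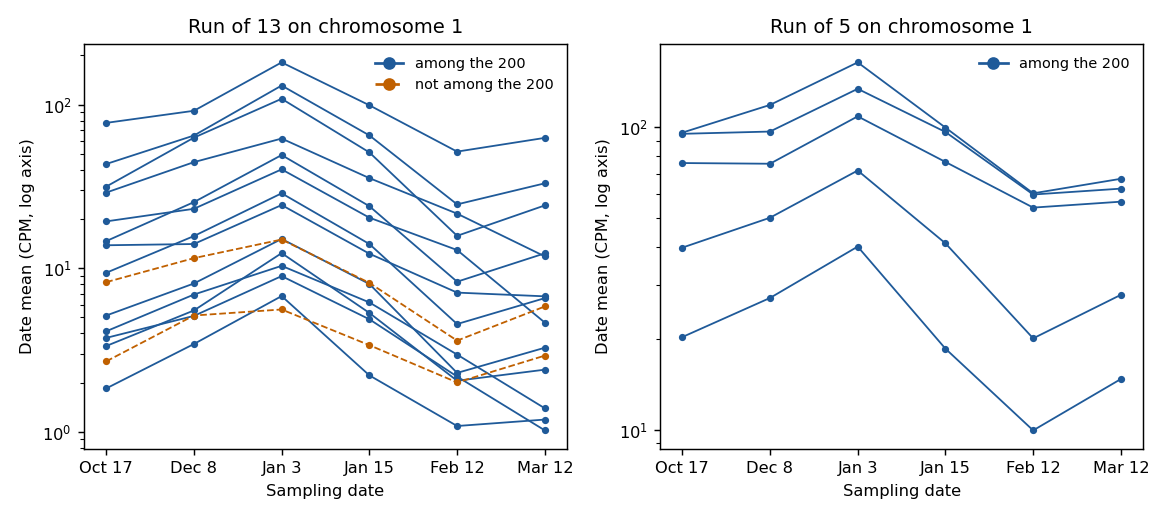
Date means in CPM (y axis, log scale) at the 6 sampling dates (x axis) for the identifiers with over 100 counts in the 2 longest runs on chromosome 1, with 1 line per identifier. In the run of 13 all lines peak on January 3, including the 2 identifiers that are not among the 200, and in the run of 5 all 5 lines peak on January 3.

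The second run, 5 consecutive identifiers from PAV01g0019741 to PAV01g0019781, was less clear. Its ratios were 1.47, 1.43, 1.38, 1.38 and 1.41, the next 2 identifiers had 1.32 and 1.24, and only 1 of the 5 had all January 3 libraries above all others. Its summed level was 559, 394 and 602 CPM on January 3 and 448, 210 and 446 CPM on December 8, so the dates overlapped. The library with the lowest callose synthase ratio of its date was the lowest in this sum at 5 of 6 dates. In the level of PAV01g0019741 relative to PAV01g0019781, the first and last of the run, that library was the lowest at 6 of 6 dates. A single gene, PAV01g0019751, fell from January 15 to February 12 (-1.01 ± 0.39, adjusted p = 0.0492).

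On the study's transport list only GSL_10C was among the 200. It is annotated as glucan synthase-like 8, which in Arabidopsis is a callose synthase needed for callose at new cell plates and at plasmodesmata. Its level was 2.99, 5.49 and 4.43 CPM on October 17, 5.72, 3.76 and 5.98 CPM on December 8, 7.94, 7.01 and 8.64 CPM on January 3, 4.38, 5.14 and 6.29 CPM on January 15, 4.38, 4.24 and 4.64 CPM on February 12 and 2.05, 3.60 and 3.07 CPM on March 12. The January 3 libraries were above all others, with a ratio of 1.45, and no comparison of other dates passed both thresholds, the largest being -0.65 ± 0.25 from February 12 to March 12 (adjusted p = 0.0363).

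The neighbours of GSL_10C with the same annotation were flatter. GSL_10D had a ratio of 1.12 and 70.3 ± 9.81 CPM on January 3 (SD, n = 3), GSL_10B 1.14 and 26.6 ± 2.12 CPM, and GSL-like3 1.01 and 180.2 ± 2.80 CPM. GSL_10A, further off in identifier order, had date means of only 0.155 to 0.417 CPM and 58 counts over 18 libraries. None of these 5 family members was called in any comparison, and for GSL_10A the counts were too low to judge a change. Among the listed genes of at least 5 CPM, January 3 was the highest date for 15 of 99 in cell to cell communication and 9 of 43 in the cell wall class, but for none of 10 water channels and none of 13 xylem genes, where it was for 21.9% of all genes. The nearest listed genes outside the 200 were CELLULOSE SYNTHASE-like B6_2 at rank 323 (ratio 1.32) and CELLULOSE SYNTHASE-like_2 at rank 362 (1.31). The summed level of the 24 xylem formation genes, a tissue list measured beside the 200, was 598 to 621 CPM on January 3, 517 to 541 CPM on January 15 and 712 to 765 CPM on October 17, and its part in the results was not tested.

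In spring the transport classes had more calls upwards than downwards, as did all genes tested (14.7% higher and 9.66% lower). From February 12 to March 12, 53 of the 183 cell to cell communication genes tested rose and 16 fell, 36 of 100 cell wall genes rose and 10 fell, 6 of 15 water channels rose and none fell, and 4 of 18 xylem genes rose and 1 fell, where 51 of the 200 January 3 genes fell and 1 rose. The rule kept the March 12 level of the 200 below their January 3 level, and the transport classes had no such bound. This contrast in direction therefore rests in part on the choice and was not tested.

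Of the genes with ontology terms, 000120F_QUIVER_SUBSEQ_1-67036_OBJg0421141 (integral to membrane) had the highest ratio at 1.66, with 58.2, 65.6 and 74.3 CPM on January 3 and at most 42.1 CPM in any other library. 000335F_QUIVER_OBJg0439061 carries terms for telomere maintenance and double-strand break repair by end joining, and it was at 8.86, 7.78 and 9.50 CPM on January 3 against 3.18 to 6.52 CPM elsewhere. 000319F_QUIVER_OBJg0437261, with protein serine/threonine kinase terms, was at 20.2, 19.6 and 20.1 CPM on January 3 and at most 14.9 CPM elsewhere. These 3 thus kept their January 3 libraries clear of all others, whereas 000253F_QUIVER_OBJg0430971, with transcription factor and helicase terms, did not: its 38.4, 26.7 and 40.5 CPM overlapped the 27.3 and 27.8 CPM of January 15.

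000337F_QUIVER_OBJg0439401 (integral to membrane, transmembrane transport) was the only gene of the 200 called lower on January 15 than on December 8 with all libraries, and PAV01g0019741 joined it without December 8 replicate 2 and PAV04g0205281 without January 3 replicate 1. It was at 20.2, 16.2 and 13.3 CPM on October 17, 21.6, 21.7 and 19.6 CPM on December 8, 31.9, 30.1 and 28.2 CPM on January 3, 8.56, 5.61 and 8.65 CPM on January 15, 10.8, 7.51 and 9.57 CPM on February 12 and 1.40, 1.08 and 2.58 CPM on March 12. Its drop around the peak was -1.53 ± 0.20 (adjusted p = 1.08e-05), and a further one of -2.53 ± 0.26 followed after February 12 (adjusted p = 1.97e-07).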

How the data were processed

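The authors trimmed reads with Trimmomatic 0.36, mapped them with STAR to the 'Regina' genome and counted reads per gene with HTSeq; the strand setting is not given in the sources used here. The deposited values are raw counts for 48,133 genes in 18 libraries, grouped by sampling date from the labels. The members, lists and tests were chosen with earlier results of these data known.

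CPM, ratios and runs were computed in Python 3.11.15 (pandas 2.3.3). Genes averaging 3 counts or more and with a count of 0 in at most 75% of libraries were fitted in edgeR 4.0.16 (R 4.3.3; TMM, 1 mean per date, 12 residual degrees of freedom). Named genes were the 10 highest ratios, those around the threshold, the 2 largest called changes in each direction per comparison, the 2 longest runs, the 2 most abundant, the 2 least even, the transport candidate and up to 5 with ontology terms. PAV01g0057591, PAV04g0221931, PAV07g0354971 and PAV08g0391651 were named after their values were seen, to complete a count. Tested on simulated data for December 8 against October 17 (26,248 genes), the fit called 95 of 100 genes changed 3-fold and 100 of 100 changed 6-fold, with 10 false calls. The simulated spread was the same for every gene, without library effects, and changed genes were drawn from the more abundant. These counts check the code and do not give error rates for the real libraries. Replicates were different trees, and the sources do not say whether a number marks 1 tree throughout. Alternatives were DESeq2 1.42.0, its size factors, library totals, other filters, other samples, a replicate block, no fold threshold and other forms of the rule. Leaving out the library of lowest callose synthase ratio at each date was added after seeing the data.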

Additional observations from a re-analysis of the deposited data

How the results depend on the processing

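Counts of called genes among the 200 stayed within 1.5 times of those reported under every alternative run except dropping the fold threshold, which gave 92 (December 8 against October 17), 34 (January 15 against December 8), 123 (February 12 against January 15), 120 (March 12 against February 12) and 134 (March 12 against October 17). Leaving out 1 library gave 27 to 36, 6 to 9, 36 to 44, 51 to 53 and 51 to 55 in the same order, and leaving out the library of lowest callose synthase ratio at each date gave 35, 5, 38, 54 and 51. In that last setting calls upwards were 6 in place of 1 for March 12 against February 12 and 3 in place of 5 for March 12 against October 17. Samples were not treated as paired. Correlations of same-numbered deviations were -0.036 to 0.367, and no comparison had all of them above 0.1. They were highest for February 12 against January 15, at 0.335 and 0.367 for numbers 1 and 2. Such correlations cannot decide whether a number marks 1 tree throughout. With the replicate number as a block the counts were 28, 7, 38, 51 and 54.

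The choice of genes depends more on the settings. Of the 200, 181 were chosen again with TMM-normalized CPM, 194 and 181 with offsets of 0.1 and 2, 149 and 173 with minimums of 1 and 10 CPM, 145 with the median of the libraries, 139 without the 3 libraries of lowest mapping share, 149 without the lowest-ratio library of each date and 154 to 167 without 1 January 3 library. Across these 11 settings 72 genes were chosen every time, among them 16 of the first 20 ranks, 6 of the run of 13 and none of the run of 5. Without the lowest-ratio libraries the calls of PAV04g0205281 (February 12 against January 15, adjusted p = 0.103) and PAV05g0232161 (March 12 against October 17, adjusted p = 0.0525) were lost. Levels near 1 CPM rest on about 10 to 20 counts per library and are imprecise.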
